A study of Homo sapiens with 25 samples.

Results

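The 10 genes UHRF1, DNMT1, CHAF1A, CHAF1B, ASF1A, ASF1B, NASP, HELLS, CDCA7 and CDCA7L encode factors that rebuild chromatin and DNA methylation behind the replication fork. They were taken by NCBI Gene number from the 28395 genes of the count table, and all 10 were among the 14658 genes that passed the filter on low counts. The mRNA comes from A549, an established cell line of human lung carcinoma, in a derivative with an auxin-inducible degron (mAID) on TRRAP, the scaffold subunit of the SAGA and TIP60 acetyltransferase complexes. The 4 groups of 3 libraries were both drugs (5-Ph-IAA and prexasertib), 5-Ph-IAA alone (1 µM for 6 h, the inducer of TRRAP degradation), prexasertib alone (an inhibitor of the checkpoint kinase CHK1, for 3 h) and DMSO. All 4 groups, DMSO included, carried the degron and had spent 20 h in 2 mM thymidine, which stalls replication, and 4 h in fresh medium afterwards, which the design text calls S phase. The prexasertib dose is left out because the labels of the series give it in different units. The labels state the genotype of these libraries as WT, although their growth protocol names the degron line, and they do not say whether the line is 1 clone or whether the libraries came from separate cultures. P-values therefore measure the spread between these libraries, which may be technical. The series title names mitotic transcription that depends on TRRAP and sensitivity to CHK1 inhibition, and the comparisons ask how each drug, alone and on top of the other, moved the mRNA of these genes.

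Behind a replication fork, new histones H3 and H4 are carried by NASP and ASF1 to CAF-1, which deposits them on the daughter strands. CAF-1 holds the subunits encoded by CHAF1A and CHAF1B and is brought to the fork by the sliding clamp PCNA. UHRF1 binds hemimethylated DNA and recruits DNMT1, the methyltransferase that copies the methylation pattern. HELLS is a nucleosome remodeller that CDCA7 activates, and both are needed to keep methylation in heterochromatin. Several of these genes are known as targets of E2F factors, which drive transcription at the start of S phase.

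Total counts per library ran from 10830048 to 17789482, and each of the 10 genes had 190 counts or more in every library. Levels are CPM, each gene's count scaled to its library's total as adjusted by TMM factors, which lay between 1.016 and 1.095 with 5-Ph-IAA and between 0.925 and 0.978 without it. When libraries were scaled by size alone, the median log2 fold change of all genes became 0.16 instead of 0.01 for 5-Ph-IAA against DMSO. The share of called genes that were higher was then 75.4% instead of 44.2% for 5-Ph-IAA against DMSO, 74.3% instead of 43% for both drugs against prexasertib, 65.2% instead of 45.4% for both drugs against DMSO, and 80.7% instead of 48.1% for 5-Ph-IAA against prexasertib. For prexasertib against DMSO it was 37.3% instead of 49.9%, and for both drugs against 5-Ph-IAA 31.6% instead of 48.2%. TRRAP mRNA was 119 ± 20.8 CPM with both drugs, 133 ± 15.3 CPM with 5-Ph-IAA, 74.8 ± 10.4 CPM with prexasertib and 83.2 ± 9.9 CPM in DMSO (SD, n = 3). TRRAP mRNA was called higher with 5-Ph-IAA against DMSO, at a log2 fold change of 0.67 ± 0.14 (SE; edgeR adjusted p = 0.0042). It was also higher with both drugs against prexasertib (0.67 ± 0.14; edgeR adjusted p = 0.0054) and against DMSO (0.51 ± 0.14; edgeR adjusted p = 0.016). The cause of this rise was not tested. The degron acts on the protein, so this mRNA does not check the labels. The epithelial keratins KRT7, KRT8 and KRT18 were between 1580 and 3850 CPM in every library, while EPCAM reached 1.34 CPM and KRT19 7.13 CPM at most. The 16 markers of blood, endothelial, fibroblast, neuronal, erythroid and liver cells summed to 86.4 to 110.9 CPM with both drugs, 89.8 to 105.5 CPM with 5-Ph-IAA, 102.4 to 112.9 CPM with prexasertib and 93.7 to 104.8 CPM in DMSO. Most of that sum was SNAP25 (mean 48.5 CPM) and COL1A1 (31.8 CPM). DCN was at 0 in all 12 libraries, and PTPRC and CD3E were at 0 in 9 or more. The part of this background in the results was not tested.

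By their calls in the main test, the genes fell into 4 patterns. UHRF1 and HELLS were lower with either drug and lowest with both. CDCA7, NASP and ASF1B were lower with 5-Ph-IAA with and without prexasertib, CDCA7 by the most. CHAF1A was lower with prexasertib with and without 5-Ph-IAA. CHAF1B, ASF1A and DNMT1 passed the test in none of the comparisons between groups, and CDCA7L passed it in 5-Ph-IAA and in both drugs against DMSO. A gene without a call could still move. CDCA7 libraries also lay lower with prexasertib, by a log2 fold change of -0.31 without 5-Ph-IAA and -0.28 with it. CHAF1A libraries also lay lower with 5-Ph-IAA, by -0.21 without prexasertib and -0.15 with it. CDCA7 and CHAF1A are therefore not shown to respond to 1 drug only. In bulk RNA, fewer cells at a stage of S phase and less RNA per cell cannot be told apart.

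**Figure D1:**
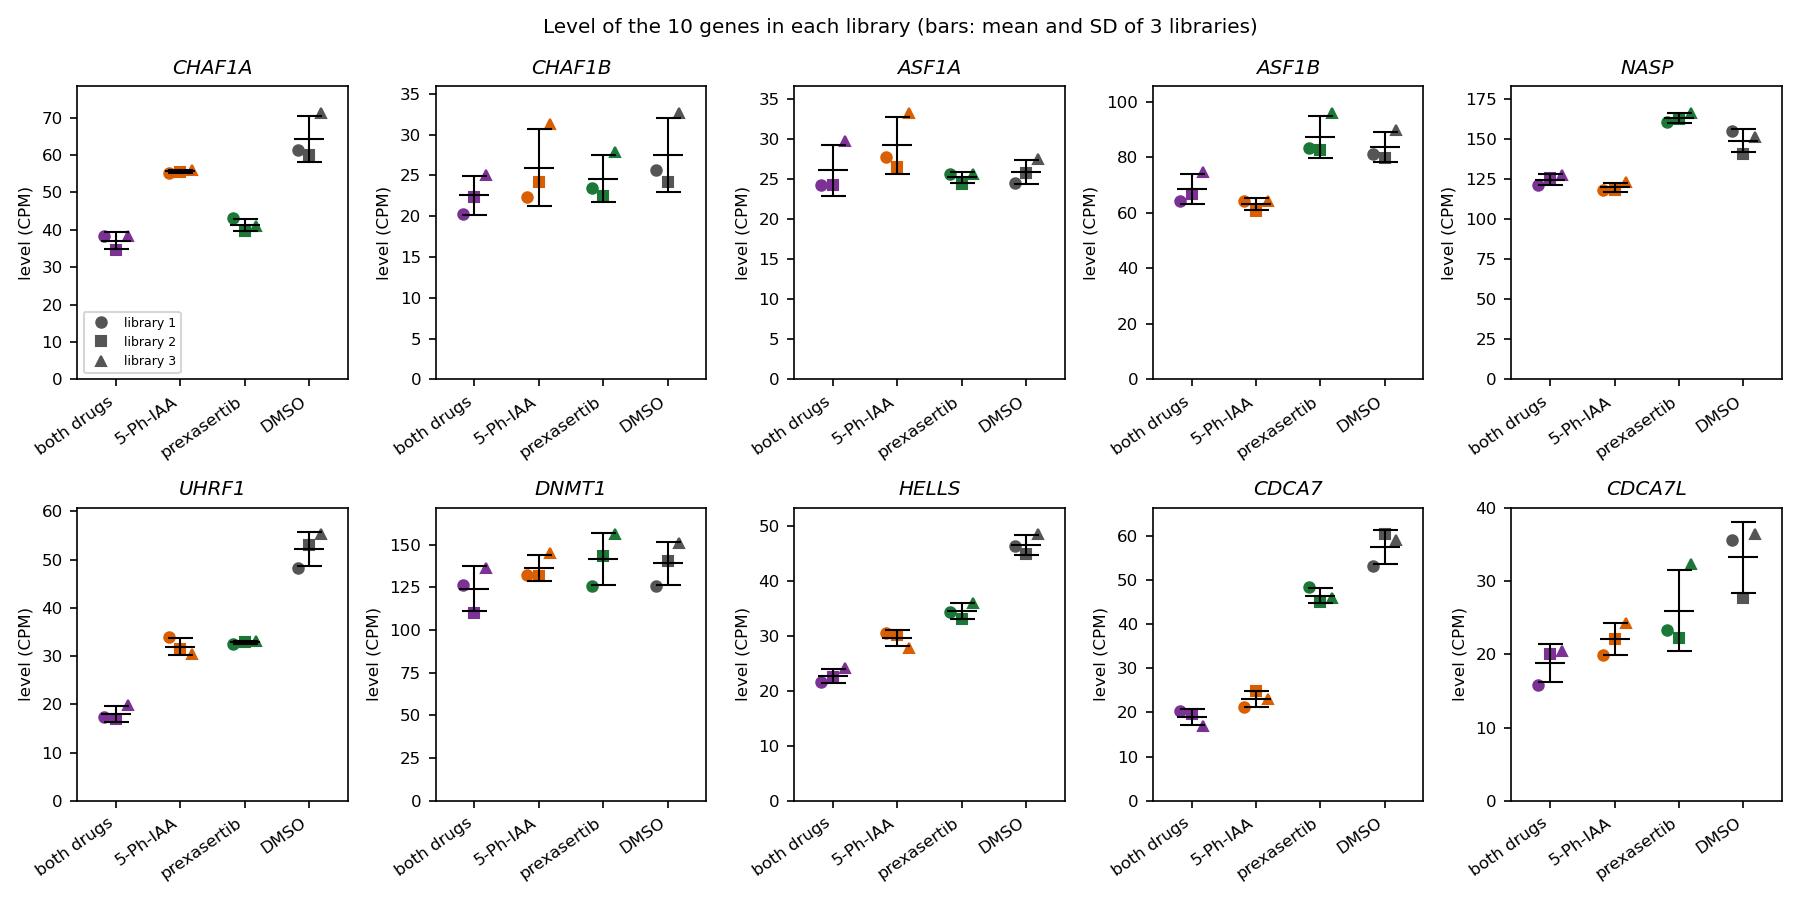
Level of each of the 10 genes in CPM (vertical axis, starting at 0) in every library of the 4 groups, with the mean and SD of the 3 libraries as black bars and the library number as the marker shape. UHRF1 lies between 16.9 and 19.9 CPM with both drugs and between 48.3 and 55.3 CPM in DMSO, with the single-drug groups between them, while DNMT1 overlaps in all 4 groups.

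The libraries with prexasertib alone all lay below DMSO for UHRF1, HELLS, CHAF1A and CDCA7, and overlapped DMSO for ASF1B. Those with 5-Ph-IAA alone lay below DMSO for each of these genes, and CDCA7 was not called with prexasertib (edgeR adjusted p = 0.084). The 250 bases before a RefSeq transcript start are shown for these genes. They are written on the gene's strand from RefSeq (GRCh38.p14), at chr19:4909251-4909500 (+) for UHRF1, chr10:94545538-94545787 (+) for HELLS, chr19:4402390-4402639 (+) for CHAF1A, chr2:173354622-173354871 (+) for CDCA7 and chr19:14136590-14136839 (-) for ASF1B. UHRF1 has 3 windows in the RefSeq table, of which the most upstream is shown; it lies inside the annotated gene, whose first base is 4903080. Capitals mark matches on either strand to the E2F-type letters TTCCCGC, TTTGGCGC, TTTCGCGC or TTTGCCGC, to the CHR-type letters TTTGAA or TTCGAA (the cell cycle homology region of G2/M genes) and to CCAAT.
UHRF1: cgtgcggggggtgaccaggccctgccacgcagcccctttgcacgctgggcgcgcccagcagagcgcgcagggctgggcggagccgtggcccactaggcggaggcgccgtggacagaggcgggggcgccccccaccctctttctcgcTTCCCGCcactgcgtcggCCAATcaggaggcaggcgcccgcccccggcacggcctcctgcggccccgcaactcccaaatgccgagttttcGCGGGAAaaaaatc
HELLS: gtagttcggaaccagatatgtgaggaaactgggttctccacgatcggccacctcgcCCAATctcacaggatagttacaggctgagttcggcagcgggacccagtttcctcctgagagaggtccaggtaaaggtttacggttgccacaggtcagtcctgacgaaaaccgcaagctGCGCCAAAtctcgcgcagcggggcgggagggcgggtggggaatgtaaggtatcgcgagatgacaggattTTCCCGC
CHAF1A: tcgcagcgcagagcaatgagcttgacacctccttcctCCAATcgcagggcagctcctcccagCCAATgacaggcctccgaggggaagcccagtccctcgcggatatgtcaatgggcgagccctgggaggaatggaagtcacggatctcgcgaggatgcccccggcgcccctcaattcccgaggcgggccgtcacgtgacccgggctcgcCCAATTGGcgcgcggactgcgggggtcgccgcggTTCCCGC
CDCA7: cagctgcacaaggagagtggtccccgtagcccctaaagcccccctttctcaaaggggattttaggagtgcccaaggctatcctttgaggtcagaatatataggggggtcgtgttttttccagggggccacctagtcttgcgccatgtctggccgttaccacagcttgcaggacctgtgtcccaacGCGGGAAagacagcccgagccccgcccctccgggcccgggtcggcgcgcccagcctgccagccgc
ASF1B: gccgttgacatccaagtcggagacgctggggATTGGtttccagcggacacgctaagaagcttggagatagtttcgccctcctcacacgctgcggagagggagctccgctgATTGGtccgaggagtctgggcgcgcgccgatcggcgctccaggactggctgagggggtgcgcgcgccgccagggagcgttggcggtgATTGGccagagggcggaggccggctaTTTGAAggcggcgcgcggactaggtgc
An E2F-type match was found upstream of 4 of the 10 genes, which were UHRF1, HELLS, CHAF1A and CDCA7, against 6.79% of 35114 upstream windows of the same length. In UHRF1 the window shown held 2 such matches and its next window held 1, and HELLS had 2. ASF1B was the only one of the 10 with a CHR-type match, 27 bases before its start, against 14.3% of all windows, and it had 3 CCAAT matches. A CCAAT match was found in 5 of the 10 genes and in 32% of all windows. A gene was counted when any of its windows matched, whereas the shares are over single windows, so the 2 are unlike measures. The letters were chosen with these sequences and the fold changes in view, so the counts beside the shares test nothing. A match is a description of the sequence, not of a bound site, and the windows of CHAF1B, ASF1A, DNMT1 and CDCA7L held none of these letters.

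Among the histone chaperones, CHAF1A, the large subunit of CAF-1 (NCBI Gene 10036, chromosome 19, 4402640 to 4450830), had 38.4, 34.5 and 38.3 CPM with both drugs and 55.3, 55.5 and 56.0 CPM with 5-Ph-IAA. It had 43.0, 39.7 and 41.0 CPM with prexasertib, against 61.4, 60.0 and 71.3 CPM in DMSO. Every library with prexasertib lay below every library without it. Prexasertib lowered CHAF1A by a log2 fold change of -0.64 ± 0.085 (SE; edgeR adjusted p = 0.00084) without 5-Ph-IAA and of -0.58 ± 0.085 (edgeR adjusted p = 0.0022) with it. The change with 5-Ph-IAA alone was -0.21 ± 0.084 (edgeR adjusted p = 0.092). With the library number as a further term in the fit, called the replicate block, its edgeR adjusted p was 0.021. CHAF1A overlaps UBXN6 on the opposite strand, and the strand setting of the counting is not given in the sources used here. UBXN6 averaged 69.3 CPM with both drugs, 62.7 with 5-Ph-IAA, 55.1 with prexasertib and 51.5 in DMSO, and with prexasertib against DMSO its value was 0.10 ± 0.089 (SE; edgeR adjusted p = 0.675). UBXN6 was called higher with 5-Ph-IAA against DMSO (0.28 ± 0.088; edgeR adjusted p = 0.036). It was also called higher with both drugs against prexasertib (0.33 ± 0.088; edgeR adjusted p = 0.0185) and against DMSO (0.43 ± 0.088; edgeR adjusted p = 0.0031). The part of reads shared between these genes in the CHAF1A values was not tested.

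CHAF1B, the middle subunit of CAF-1 (chromosome 21, 36385392 to 36419015), lay between 20.3 and 32.7 CPM in the 12 libraries, and its groups overlapped. Against DMSO it changed by -0.29 ± 0.15 (SE) with both drugs, -0.09 ± 0.15 with 5-Ph-IAA and -0.16 ± 0.15 with prexasertib (edgeR adjusted p between 0.187 and 0.733). With the replicate block the first of these passed (edgeR adjusted p = 0.013). The log2 ratio of CHAF1A to CHAF1B within a library does not depend on the scaling. Its mean was 0.72 with both drugs, 1.11 with 5-Ph-IAA, 0.75 with prexasertib and 1.23 in DMSO. Prexasertib lowered it by a mean of -0.44 over the arms without and with 5-Ph-IAA (exact two-sided permutation p = 0.01, adjusted p = 0.0167 over 10 tests of such ratios). Permuted within replicate numbers, where the exact p cannot go below 0.0312, none of the ratios passed. The adjusted p was 0.0521 here and for 5 other ratio effects that otherwise passed, and 0.0893 for ASF1B to ASF1A with prexasertib. Those at 0.0521 already stood at the lowest exact p. Larger effects could not have lowered it, so this permutation cannot decide on them. For 5-Ph-IAA the mean difference in CHAF1A to CHAF1B was -0.07 (exact permutation p = 0.48, adjusted p = 0.533).

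The ASF1 paralogs hand H3-H4 dimers to CAF-1 and to the replication-independent chaperone HIRA. ASF1B (chromosome 19, 14119512 to 14136589), the form tied to proliferation, had 64.3, 66.7 and 74.7 CPM with both drugs and 64.2, 60.5 and 64.4 CPM with 5-Ph-IAA. It had 83.2, 82.5 and 96.1 CPM with prexasertib and 81.3, 79.6 and 89.7 CPM in DMSO. The 6 libraries with 5-Ph-IAA all lay below the 6 without it. ASF1B fell by 0.41 ± 0.086 on the log2 scale with 5-Ph-IAA against DMSO (SE; edgeR adjusted p = 0.0043) and fell by 0.35 ± 0.086 with both drugs against prexasertib (edgeR adjusted p = 0.013). Both drugs against prexasertib lost the ASF1B call without replicate 1 or 2 of both drugs and with library size as the only scaling (edgeR adjusted p up to 0.0651). ASF1A (chromosome 6, 118894152 to 118909171) lay between 24.2 and 33.3 CPM. Its libraries with 5-Ph-IAA alone lay above those with prexasertib alone, and the other pairs of groups overlapped. It changed by 0.17 ± 0.11 with 5-Ph-IAA against DMSO (edgeR adjusted p = 0.308). With library size as the only scaling this value was 0.33 and was called higher (edgeR adjusted p = 0.028). ASF1A lies inside MCM9, which is on the opposite strand and averaged 8 to 8.62 CPM in the 4 groups.

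The ASF1B to ASF1A log2 ratio averaged 1.39 with both drugs, 1.11 with 5-Ph-IAA, 1.78 with prexasertib and 1.68 in DMSO. With 5-Ph-IAA it differed by -0.57 when prexasertib was absent and -0.39 when it was present. The mean of -0.48 had an exact permutation p of 0.005 (two-sided, the lowest this design allows; adjusted p = 0.01). The ratio was higher with prexasertib, by 0.10 in cells not given 5-Ph-IAA and 0.28 in cells given it (mean 0.19, exact permutation p = 0.015, adjusted p = 0.0214), a call that was lost without DMSO replicate 2 (adjusted p = 0.05) and within replicate numbers (exact permutation p = 0.0625, adjusted p = 0.0893).

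NASP, which keeps a reserve of soluble H3-H4 (chromosome 1, 45584041 to 45618893), had 121, 126 and 128 CPM with both drugs and 118, 119 and 123 CPM with 5-Ph-IAA. It had 161, 163 and 167 CPM with prexasertib and 155, 141 and 151 CPM in DMSO. The libraries with 5-Ph-IAA were all lower than those without it, and those with prexasertib alone were the highest. NASP fell by 0.31 ± 0.061 on the log2 scale with 5-Ph-IAA against DMSO (SE; edgeR adjusted p = 0.0025) and by 0.39 ± 0.061 with both drugs against prexasertib (edgeR adjusted p = 0.00068). With prexasertib against DMSO the value was 0.13 ± 0.06 (edgeR adjusted p = 0.283).

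In the maintenance of DNA methylation, UHRF1 (NCBI Gene 29128, chromosome 19, 4903080 to 4962154) had 17.4, 16.9 and 19.9 CPM with both drugs and 33.9, 31.6 and 30.4 CPM with 5-Ph-IAA. It had 32.6, 32.9 and 33.1 CPM with prexasertib, against 48.3, 53.1 and 55.3 CPM in DMSO. Both single-drug groups lay below DMSO and overlapped each other, and both drugs together lay below all other libraries. With both drugs UHRF1 was at 0.346 times its DMSO level, a log2 fold change of -1.53 ± 0.093 (SE; edgeR adjusted p = 9.3e-07), which was below all but 0.239% of the genes tested. The effect of 5-Ph-IAA was -0.71 ± 0.089 without prexasertib (edgeR adjusted p = 0.00012) and -0.86 ± 0.094 with it (edgeR adjusted p = 4.2e-05). On top of 5-Ph-IAA, prexasertib gave -0.82 ± 0.093 (edgeR adjusted p = 0.0003). The difference between the single drugs was -0.04 ± 0.091 (5-Ph-IAA against prexasertib, edgeR adjusted p = 0.778).

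DNMT1 (NCBI Gene 1786, chromosome 19, 10133346 to 10194953) had 127, 110 and 136 CPM with both drugs and 132, 132 and 145 CPM with 5-Ph-IAA. It had 126, 143 and 156 CPM with prexasertib and 126, 141 and 151 CPM in DMSO, so all groups overlapped. Against DMSO it changed by -0.16 ± 0.1 (SE) with both drugs, -0.03 ± 0.1 with 5-Ph-IAA and 0.03 ± 0.1 with prexasertib (edgeR adjusted p = 0.267, 0.879 and 0.944). Under the replicate block, both drugs against DMSO gave an edgeR adjusted p of 0.028 and both drugs against prexasertib gave 0.013 at -0.18. The log2 ratio of UHRF1 to DNMT1 was -2.77 ± 0.081 with both drugs, -2.09 ± 0.15 with 5-Ph-IAA, -2.1 ± 0.15 with prexasertib and -1.41 ± 0.034 in DMSO (SD, n = 3). The groups with 1 drug did not overlap DMSO or both drugs. 5-Ph-IAA changed this ratio by -0.68 without prexasertib and by -0.68 with it, and prexasertib changed it by -0.69 and by -0.68 (exact permutation p = 0.005 for each drug, two-sided; adjusted p = 0.01).

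HELLS, the remodeller (NCBI Gene 3070, chromosome 10, 94545788 to 94613905), had 21.6, 22.5 and 24.2 CPM with both drugs and 30.6, 30.3 and 27.9 CPM with 5-Ph-IAA. It had 34.4, 33.1 and 36.0 CPM with prexasertib, against 46.4, 44.9 and 48.6 CPM in DMSO. None of the 4 groups overlapped. 5-Ph-IAA gave a log2 fold change of -0.65 ± 0.083 for HELLS against DMSO (SE; edgeR adjusted p = 0.00012) and of -0.60 ± 0.085 on top of prexasertib (edgeR adjusted p = 0.00035). Prexasertib against DMSO gave -0.43 ± 0.083 (edgeR adjusted p = 0.0088). On top of 5-Ph-IAA it gave -0.38 ± 0.085 (edgeR adjusted p = 0.031), and that call was lost without 5-Ph-IAA replicate 1 or 2 or both drugs replicate 1 or 2 (edgeR adjusted p up to 0.145). With both drugs against DMSO the log2 fold change was -1.03 ± 0.084, a level 0.489 times that in DMSO.

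CDCA7, the activating partner of HELLS (NCBI Gene 83879, chromosome 2, 173354872 to 173368997), had 20.3, 19.7 and 16.9 CPM with both drugs and 21.2, 24.8 and 23.0 CPM with 5-Ph-IAA. It had 48.3, 45.1 and 46.0 CPM with prexasertib and 53.1, 60.4 and 59.0 CPM in DMSO. The libraries with 5-Ph-IAA reached at most 24.8 CPM, and those without it had at least 45.1 CPM. With 5-Ph-IAA against DMSO the log2 fold change was -1.32 ± 0.096 (SE; edgeR adjusted p = 1.4e-06), and with both drugs against DMSO -1.60 ± 0.098 (edgeR adjusted p = 9.3e-07). Its fall with 5-Ph-IAA on top of prexasertib was -1.29 ± 0.098 (log2, SE; edgeR adjusted p = 2.6e-06), below all but 0.266% of genes. The value for prexasertib against DMSO was -0.31 ± 0.093 (edgeR adjusted p = 0.084; under the replicate block 0.0065), although those groups did not overlap. On top of 5-Ph-IAA, prexasertib gave -0.28 ± 0.099 (edgeR adjusted p = 0.196; under the replicate block 0.041).

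CDCA7L, a paralog of CDCA7 known as a MYC-interacting protein (chromosome 7, 21900899 to 21945899), had 15.8, 20.1 and 20.5 CPM with both drugs and 19.9, 22.1 and 24.3 CPM with 5-Ph-IAA. It had 23.3, 22.3 and 32.3 CPM with prexasertib and 35.6, 27.7 and 36.4 CPM in DMSO, a wider spread than that of CDCA7. It changed by -0.83 ± 0.16 with both drugs against DMSO (SE; edgeR adjusted p = 0.0022). Its fall of -0.59 ± 0.16 with 5-Ph-IAA (edgeR adjusted p = 0.017) was no longer called when any of replicates 1 and 3 of DMSO or 1 and 2 of 5-Ph-IAA was left out (edgeR adjusted p up to 0.0707). With prexasertib the value was -0.36 ± 0.16 (edgeR adjusted p = 0.253; under the replicate block 0.0097). The log2 ratio of CDCA7 to CDCA7L differed by -0.79 with 5-Ph-IAA (exact two-sided permutation p = 0.005, adjusted p = 0.01) and by 0.01 with prexasertib (exact permutation p = 0.945). The ratio of HELLS to CDCA7 rose by 0.68 with 5-Ph-IAA (exact permutation p = 0.005, adjusted p = 0.01), and with prexasertib it differed by -0.11 (exact permutation p = 0.19, adjusted p = 0.237, and 0.025 without replicate 3 of both drugs). CDCA7L overlaps DNAH11 on the opposite strand, which averaged at most 1.74 CPM in any group.

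**Figure D2:**
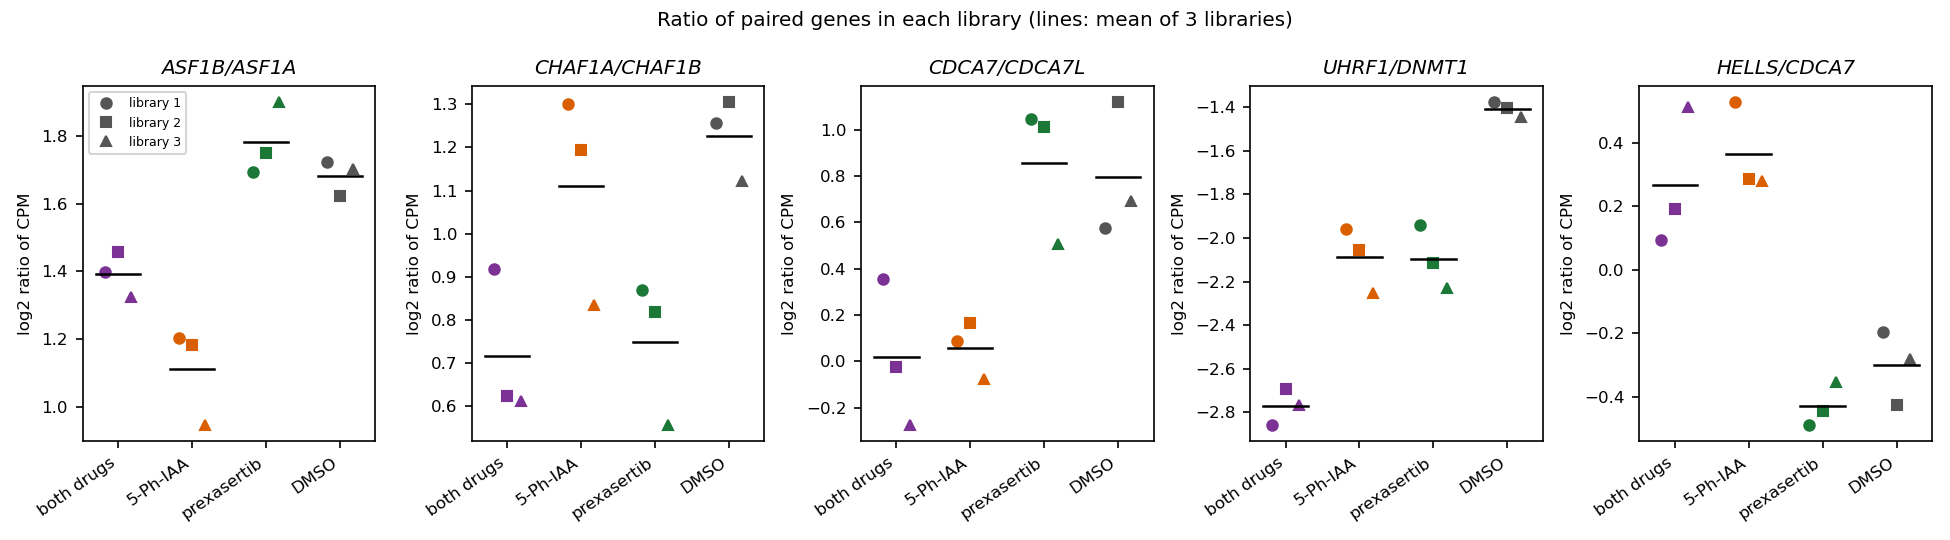
Log2 ratio of the CPM of 2 genes (vertical axis) in each library of the 4 groups, with the mean of 3 libraries as a line and the library number as the marker shape; differences between groups can be read, whereas the absolute ratio also depends on transcript length. UHRF1/DNMT1 averages -2.77 with both drugs and -1.41 in DMSO, and ASF1B/ASF1A and CDCA7/CDCA7L lie lower in the groups with 5-Ph-IAA.

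Counted together, 6 of the 10 genes were lower with 5-Ph-IAA against DMSO and 0 were higher, where 21.8% of all genes tested were called, 12.2% lower and 9.65% higher. The libraries of 7 genes did not overlap, all lower, as for 18.9% of all genes (18.5% higher). Their median log2 fold change was -0.36, against 0.01 for all genes. With prexasertib against DMSO 3 genes (CHAF1A, UHRF1 and HELLS) were lower and 0 were higher, where 4.73% of all genes were called, 2.37% lower and 2.36% higher. Libraries did not overlap for 4 genes that were lower and 1, NASP, that was higher, against 11.3% and 9.78% of all genes, and the median was -0.24 against -0.004 for all genes. Under the replicate block 5 of the 10 were lower, with CDCA7 and CDCA7L added, but 9.77% of all genes were then called lower and 8.37% higher. With both drugs against DMSO 7 were lower and 0 were higher, where 25.9% of all genes were called, 14.2% lower and 11.8% higher. The same number, 7, did not overlap and were lower, against 20.8% of all genes (19.7% higher), and the median was -0.54. Under the replicate block 9 of the 10 were called lower with both drugs against DMSO, but 3441 of all genes instead of 2077 were then called lower. These comparisons share the DMSO libraries. The genes were chosen with results of these data known, so the counts describe them and test nothing about the group.

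**Figure D3:**
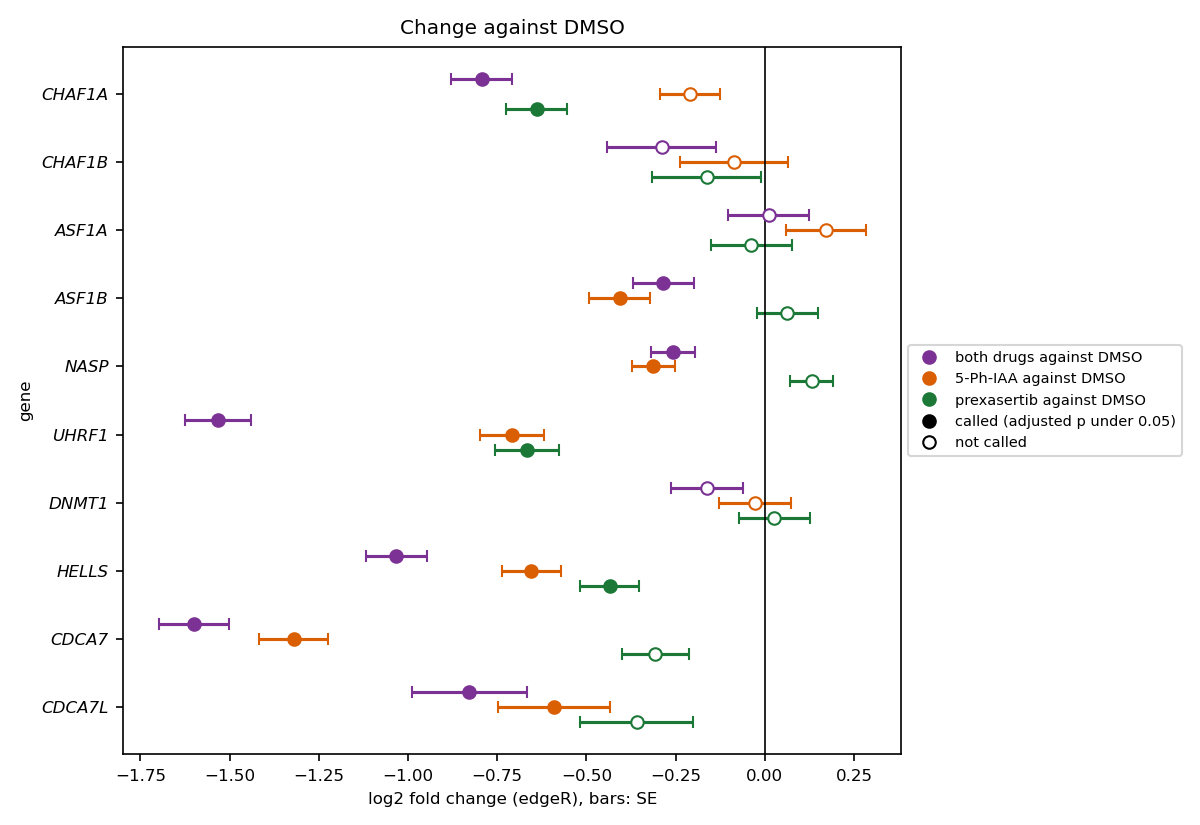
Log2 fold change against DMSO (horizontal axis, edgeR, bars are SE) of the 10 genes for both drugs, 5-Ph-IAA and prexasertib; filled points passed an adjusted p of 0.05. CDCA7 reaches -1.60 and UHRF1 -1.53 with both drugs, and the points of DNMT1, ASF1A and CHAF1B are all open.

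The other comparisons ask what each drug did on top of the other. Both drugs against prexasertib shares no library with 5-Ph-IAA against DMSO, and both drugs against 5-Ph-IAA shares none with prexasertib against DMSO. With both drugs against prexasertib, UHRF1, HELLS, CDCA7, NASP and ASF1B were lower and 0 genes were higher, where 18.2% of all genes were called, 10.4% lower and 7.85% higher. The libraries of 7 genes did not overlap, all lower, against 17.6% of all genes that were lower and another 17.6% that were higher. With both drugs against 5-Ph-IAA, CHAF1A, UHRF1 and HELLS were lower and 0 were higher, where 2.42% of all genes were called, 1.26% lower and 1.17% higher. The libraries of 4 genes did not overlap, all lower, against 10.7% of all genes (8.87% higher). CDCA7L, called with 5-Ph-IAA against DMSO, had -0.47 ± 0.16 on top of prexasertib (SE; edgeR adjusted p = 0.061; under the replicate block 0.00076). The interaction of the 2 drugs was called by edgeR in 0 of the 10 genes and 0.00% of all genes, and at an unadjusted p under 0.05 in 0 of the 10 and 519 of all genes. DESeq2 and limma-voom also called 0 of the 10, and DESeq2 called 5 of all genes. The interaction values of the 10 genes lay between -0.16 (DNMT1, SE 0.14) and 0.12 (CDCA7L, SE 0.23), and UHRF1 had -0.16 ± 0.13. A p that misses the threshold does not show that the effects add.

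**Figure D4:**
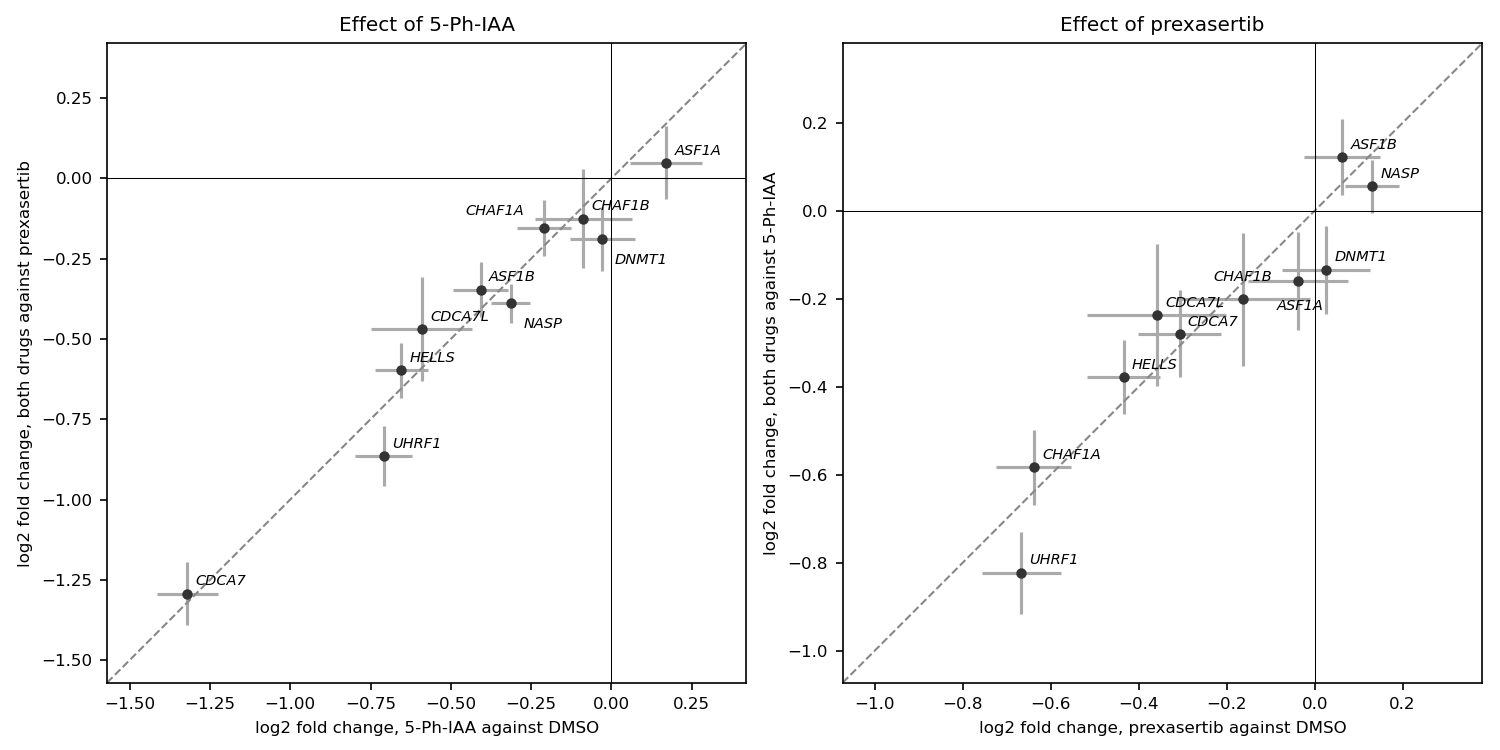
Log2 fold change (edgeR, bars are SE) of the 10 genes for 5-Ph-IAA (left panel) and prexasertib (right panel), with the other drug absent on the horizontal axis and present on the vertical axis; the dashed line marks equal effects. CDCA7 stands at -1.32 and -1.29 for 5-Ph-IAA, and CHAF1A at -0.64 and -0.58 for prexasertib.

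Setting the single drugs against each other was added after the values were seen, to test which treatment lowered a gene more. The treatments lasted 6 h for 5-Ph-IAA and 3 h for prexasertib, so drug and duration cannot be told apart. In 5-Ph-IAA against prexasertib 26.2% of all genes were called, 13.6% lower and 12.6% higher. Of the 10 genes 3 were lower and 1 was higher. Libraries did not overlap for 4 genes that were lower and 2 that were higher, against 18.9% and 21.0% of all genes. CDCA7 was lower with 5-Ph-IAA (-1.01 ± 0.096, SE; edgeR adjusted p = 6.3e-06), as were ASF1B (-0.47 ± 0.086; edgeR adjusted p = 0.0014) and NASP (-0.44 ± 0.061; edgeR adjusted p = 0.00015). CHAF1A was higher with 5-Ph-IAA than with prexasertib (0.43 ± 0.085; edgeR adjusted p = 0.0024). HELLS had -0.22 ± 0.083 (edgeR adjusted p = 0.068; under the replicate block 0.037).

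Across the 12 libraries, whose log2 CPM share the same 4 groups and library factors, UHRF1 and HELLS were the most alike pair of the 10 genes (Pearson r = 0.971), followed by ASF1B and NASP (0.934). Among the other 12549 genes whose log2 CPM averaged 1 or more, the genes most like UHRF1 were MCM10 (0.98), PSMC3IP (0.978) and WDHD1 (0.973), and PSMC3IP (0.99), ATAD2 (0.985) and E2F8 (0.981) were most like HELLS. CHAF1A was most like POLD3 (0.982), a subunit of DNA polymerase delta, and then NUP153 and RAI1. CDCA7 was most like RUSC1 (0.994), IGF2BP1 (0.993) and TMPO (0.991). ASF1B was most like TSR1 (0.983), EIF3B (0.981) and FOXM1 (0.979), and NASP most like NCAPG (0.988), MORF4L2 (0.987) and HNRNPUL2 (0.986). For CHAF1B these were TXNRD1 (0.962), RAD18 and EVA1C, for ASF1A ISCA1 (0.945), RFFL and RAB7B, for CDCA7L RMI2 (0.959), NXT1 and PHF23, and for DNMT1 DPM2 (0.932), G6PC3 and TREX1.

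Other genes that work with CAF-1 and ASF1 were described from a list of 18 genes, all of which were tested. With 5-Ph-IAA against DMSO 8 of the 18 were lower and 1 was higher, and with prexasertib 0 were lower and 1 was higher. Over all genes tested, 12.2% were lower and 9.65% higher with 5-Ph-IAA, and 2.37% lower and 2.36% higher with prexasertib. DNAJC9, a chaperone of H3-H4, had 67.2 ± 10.7 CPM with 5-Ph-IAA and 111 ± 11.9 CPM in DMSO (SD, n = 3), a log2 fold change of -0.73 ± 0.11 (SE; edgeR adjusted p = 0.0005). MCM2, a helicase subunit that also binds parental histones, fell by 1.06 ± 0.22 (edgeR adjusted p = 0.0059), and NAP1L4, a nucleosome assembly protein gene, by 0.31 ± 0.068 (edgeR adjusted p = 0.0057). PCNA was 642 ± 43.3 CPM with 5-Ph-IAA and 813 ± 56.6 CPM in DMSO (-0.34 ± 0.077; edgeR adjusted p = 0.0066), and with prexasertib it rose by 0.33 ± 0.077 (edgeR adjusted p = 0.027). The clamp gene thus moved opposite to CHAF1A with prexasertib. The gene that was higher with 5-Ph-IAA was SETDB1, an H3K9 methyltransferase, at 0.29 ± 0.087 (edgeR adjusted p = 0.03), named after its values were seen. RBBP4, the CAF-1 subunit outside the 10 genes, was also named after its values were seen. It fell by 0.40 ± 0.095 with 5-Ph-IAA (edgeR adjusted p = 0.0084) and had 0.01 ± 0.095 with prexasertib (edgeR adjusted p = 0.975). With both drugs against prexasertib it fell by 0.53 ± 0.096 (edgeR adjusted p = 0.002). The list medians were -0.20 with 5-Ph-IAA and -0.01 with prexasertib.

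A list of 16 genes, all tested, held other DNA methyltransferases, genes for the removal of methylation, its readers and further factors such as USP7. Of these, 5 were lower and 0 were higher with 5-Ph-IAA against DMSO, and 0 were lower and 2 were higher with prexasertib. The shares of all genes were 12.2% lower and 9.65% higher with 5-Ph-IAA, against 2.37% and 2.36% with prexasertib. DNMT3B, a de novo methyltransferase, was 22.9 ± 1.89 CPM with both drugs, 19.4 ± 1.53 CPM with 5-Ph-IAA, 35.7 ± 1.56 CPM with prexasertib and 26.2 ± 1.46 CPM in DMSO (SD, n = 3). With 5-Ph-IAA against DMSO DNMT3B fell by 0.43 ± 0.099 (log2, SE; edgeR adjusted p = 0.0076) and rose by 0.45 ± 0.098 with prexasertib (edgeR adjusted p = 0.019). USP7, a deubiquitinase that binds UHRF1 and DNMT1, fell by 0.37 ± 0.064 with 5-Ph-IAA (edgeR adjusted p = 0.0012). TET3, which oxidises methylcytosine, fell by 0.66 ± 0.15 (edgeR adjusted p = 0.0079). GADD45A, a stress-induced gene that has been linked to demethylation, fell by 0.49 ± 0.11 with 5-Ph-IAA (edgeR adjusted p = 0.0064) and rose by 0.74 ± 0.11 with prexasertib (edgeR adjusted p = 0.0017). The fifth lower gene was UHRF2, the paralog of UHRF1, at -0.48 ± 0.13 (edgeR adjusted p = 0.015), named after its values were seen. The list medians were -0.15 with 5-Ph-IAA and -0.01 with prexasertib.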

How the data were processed

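Poly(A) RNA of 12 libraries was sequenced after directional library preparation, per the labels' protocols. The deposited values are whole-number counts for each gene with no normalization by the authors. Tools listed in the submitters' processing notes are featureCounts 2.0.8 and limma 3.58.1, with the build hg38. The sources used here do not give the aligner, annotation or strand setting. The 13 CUT&RUN samples are not analysed here.

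The test was edgeR 4.0.16 (R 4.3.3). Low genes were removed with filterByExpr (minimum count 10, minimum total 15), and the rest were scaled by TMM and fitted with a robust quasi-likelihood model of the 4 groups. P-values were adjusted by Benjamini-Hochberg over 14658 genes and called under 0.05. The SE is the size of the log2 fold change divided by the square root of F. Log2 CPM used a prior count of 2. Ratios of 2 genes were compared by exact permutation of one drug's labels, separately where the other drug was absent and present (400 arrangements, so p is at least 0.005). The correlation of same-numbered libraries' deviations from their group means was 0.22 to 0.633 in all 18 pairs. Differently numbered libraries reached 0.366, 5 of 12 libraries correlated best with their own number in every other group, and the pairs numbered 3 (0.531 or more) stood apart from those numbered 1 and 2. The main tests did not treat the numbers as pairs. Pairing by number entered only the replicate block and the permutation within replicate numbers. The edgeR fit was tried on simulated counts with the same spread for all genes and no differences between library numbers. That trial does not cover the differences between numbers seen in these libraries. All 10 members are named; of the other genes of the pathway, up to 4 called genes per list and comparison; and for each member the 3 genes most alike over the libraries. Members and lists were chosen with earlier results of these data known. DESeq2 1.42.0, limma-voom and other scalings and filters were alternatives.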

Additional observations from a re-analysis of the deposited data

How the results depend on the processing

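Over 70 fold changes of the 10 genes and 1460 combinations with an alternative, 1427 kept their side of the threshold, 18 lost and 15 gained a call, and 0 calls changed sign. The alternatives were DESeq2 size factors, library size alone, no filter, a strict filter (CPM of at least 1 in every library), DESeq2, limma-voom, a prior count of 0.5 for the ratios, the compared groups alone, the replicate block, the libraries numbered 1 and 2 alone, and each library left out. The replicate block made 5 genes lower with prexasertib against DMSO instead of 3, where 9.77% of all genes were lower instead of 2.37%. It added CHAF1B and DNMT1 with both drugs against DMSO (9 genes instead of 7). With both drugs against prexasertib it added DNMT1 and CDCA7L (7 instead of 5). CHAF1A was added with 5-Ph-IAA against DMSO, CDCA7 with both drugs against 5-Ph-IAA and HELLS with 5-Ph-IAA against prexasertib. These other counts changed by no more than 1.5 times, and calls over all genes rose as well. Leaving out 1 library gave 3 genes each time for prexasertib against DMSO, 5 to 6 for 5-Ph-IAA against DMSO, 4 to 6 for both drugs against prexasertib, 2 to 3 for both drugs against 5-Ph-IAA and 6 to 7 for both drugs against DMSO. HELLS with both drugs against 5-Ph-IAA also lost its call without a filter (edgeR adjusted p = 0.0532) and with the compared groups alone (0.115), and NASP with both drugs against DMSO with library size alone (0.0508). ASF1B with both drugs against DMSO (-0.28 ± 0.086, edgeR adjusted p = 0.026) lost its call with library size alone and without DMSO replicate 3 or both drugs replicate 1 or 2 (up to 0.103). CDCA7L gained a call with prexasertib against DMSO without the libraries numbered 3 (0.00852), and with both drugs against prexasertib there (0.0378), with DESeq2 (0.0385) and without prexasertib replicate 2 (0.0497).

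Within replicate numbers, exact permutation of the ratios cannot go below p = 0.0312, and the adjusted p of each ratio that had passed became 0.0521 (0.0893 for ASF1B/ASF1A with prexasertib), with effects of -0.48 and 0.19 for ASF1B/ASF1A, -0.44 for CHAF1A/CHAF1B, -0.79 for CDCA7/CDCA7L, -0.68 and -0.69 for UHRF1/DNMT1 and 0.68 for HELLS/CDCA7. The effects at 0.0521 stood at this lowest exact p, so the permutation within replicate numbers cannot decide on them. Leaving out 1 library, the effect of prexasertib was 0.15 to 0.21 for ASF1B/ASF1A and -0.17 to -0.070 for HELLS/CDCA7.

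Counts over all genes moved more. With the block, calls were 2659 instead of 693 (prexasertib against DMSO), 6245 instead of 3201 (5-Ph-IAA against DMSO), 5441 instead of 2674 (both drugs against prexasertib), 2272 instead of 355 (both drugs against 5-Ph-IAA), 6552 instead of 3802 (both drugs against DMSO), 6757 instead of 3837 (5-Ph-IAA against prexasertib) and 96 instead of 0 (interaction). Without the libraries numbered 3 they were, in the same order, 2094, 5296, 4498 and 2042, then 5935 for 5-Ph-IAA against prexasertib and 187 for the interaction, with both drugs against DMSO within 1.5 times. The compared groups alone gave 357 (prexasertib against DMSO) and 184 (both drugs against 5-Ph-IAA), DESeq2 626 and 5 (both drugs against 5-Ph-IAA, interaction) and library size alone 1 (interaction). With 1 library left out, calls went down to 306 (prexasertib against DMSO), 2092 (5-Ph-IAA against DMSO) and 156 (both drugs against 5-Ph-IAA).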

Other observations

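Chaperones that place histones outside replication were listed beside the genes above: HIRA, UBN1, UBN2, CABIN1, DAXX and ATRX for H3.3, and HJURP for the centromeric histone CENP-A. Of these 7, all tested, 2 were lower and 0 were higher with 5-Ph-IAA against DMSO, where 12.2% of all genes were lower, and the list median was -0.03. With prexasertib against DMSO the list median was 0.12. HJURP was 152 ± 29.9 CPM with both drugs, 142 ± 23.9 CPM with 5-Ph-IAA, 275 ± 45 CPM with prexasertib and 268 ± 44.3 CPM in DMSO (SD, n = 3), and it fell by 0.92 ± 0.17 on the log2 scale with 5-Ph-IAA (SE; edgeR adjusted p = 0.0027). HIRA, the partner of ASF1A in H3.3 deposition, was 38.5 ± 2.41 CPM with 5-Ph-IAA and 48.3 ± 1.3 CPM in DMSO and fell by 0.33 ± 0.078 (edgeR adjusted p = 0.0084).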
